A study of Homo sapiens with 12 samples.

Results

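The 48 genes described here encode the working parts of the lysosome: 10 lysosomal proteases, 12 enzymes that degrade glycans and glycosaminoglycans, 6 lipid hydrolases, activators and carriers, 5 proteins of the lysosomal membrane, the transcription factors TFEB and TFE3, and 13 components of the vacuolar proton pump (V-ATPase). They were listed by function from general knowledge of the organelle, without a threshold on their values, but with earlier results of these data known. They were looked up among the 56638 gene symbols of the count table. All 48 were found, and all 48 passed the filter on low counts that left 16080 tested genes.

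Lysosomes are acidic organelles that break down proteins, glycans and lipids delivered by endocytosis and autophagy. Their lumen is acidified by the V-ATPase, in which a cytosolic V1 sector hydrolyses ATP and a membrane-embedded V0 sector carries the protons. Many genes of the organelle share a short promoter element, the CLEAR motif, which is bound by the MiT/TFE family of transcription factors. That family comprises TFEB, TFE3, TFEC and MITF, the lineage factor of melanocytes, and melanosomes are themselves organelles related to lysosomes.

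RNA came from 501Mel, an established human melanoma cell line with a BRAF-V600E mutation, cultured for 48 h with vehicle (DMSO), with 1 μM Vem (vemurafenib, an inhibitor of mutant BRAF), with 5 μM RSV (resveratrol), with 10 nM TCDD (an agonist of the aryl hydrocarbon receptor, AhR), or with RSV+Vem or RSV+TCDD. For RSV+TCDD the sample labels state 1 nM TCDD but the protocol states 10 nM, so the dose of that group is not certain. Each group had 2 libraries, all from 1 cell line, and the labels do not say whether they came from separate cultures, so the p-values measure the spread between these libraries. In RNA from whole cultures, a different share of cells and a different amount of RNA per cell cannot be told apart.

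Counts on genes ran from 8378655 in RSV+Vem replicate 2 to 25076925 in vehicle replicate 2, and RIN values ran from 8.6 to 9.7, with the lowest values, 8.7 and 8.6, in the RSV+Vem libraries. The control sequences added to each sample, the ERCC spike-ins among them, took between 0.0310% and 0.0936% of the counts, and within RSV+Vem they took 0.0389% and 0.0903%, while the TMM factors of these libraries were 1.07 and 1.06. All 7 melanocyte lineage markers were detected and summed to between 11108 and 51552 CPM (counts scaled to library size with TMM factors). The 5 macrophage and leukocyte markers summed to between 0.32 and 3.26 CPM, with AIF1 listed at 0 in all 12 libraries, and the 4 endothelial markers to between 0.28 and 2.50 CPM. Of the latter, VWF was called higher with Vem and with RSV and KDR with RSV, on at most 26 counts per library. The 5 keratinocyte markers summed to between 13.7 and 26.0 CPM, nearly all of it KRT10, which was called lower with RSV (-0.37). DUSP6, an ERK target gene used as a check on Vem, was at 111 and 98.5 CPM with vehicle and at 1.81 and 0.692 CPM with Vem. CYP1A1, an AhR target used as a check on TCDD, was at 23.5 and 23.1 CPM with vehicle and at 156 and 131 CPM with TCDD.

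The 48 genes together took between 0.981% and 1.02% of the counts on genes in the vehicle libraries and between 1.36% and 1.38% in the Vem libraries. With RSV they took 1.24% and 1.31%, with RSV+Vem 1.22% and 1.26%, with TCDD 1.10% and 1.11%, and with RSV+TCDD 1.37% and 1.41%. The vehicle libraries therefore held the smallest share, and TCDD alone was nearest to them. Of the 48 genes, 30 had their highest mean level with Vem, against 6 with RSV+TCDD, 5 with RSV, 4 with TCDD, 2 with RSV+Vem and 1 with vehicle. Vehicle was the group with the lowest mean for 19 genes.

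**Figure D1:**
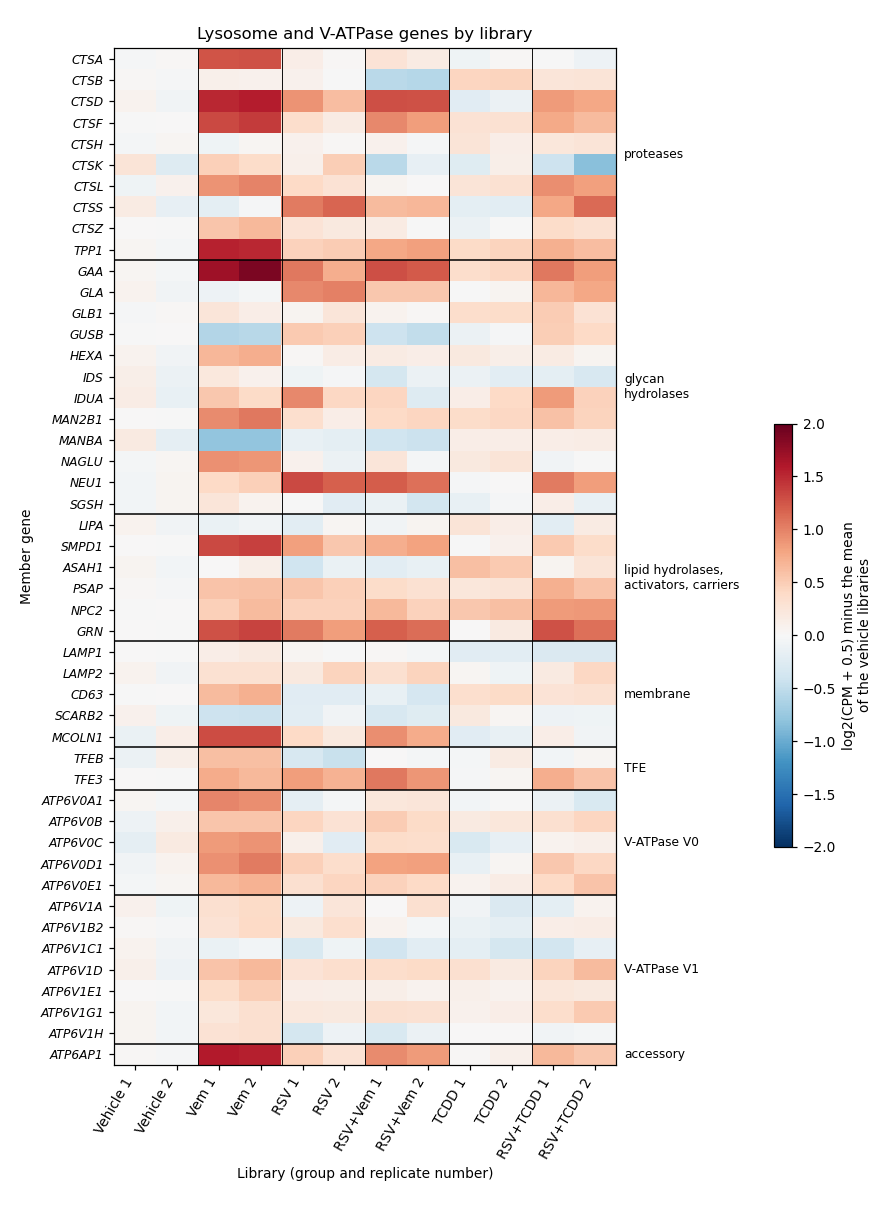
Levels of the 48 genes in each of the 12 libraries, as log2(CPM + 0.5) minus the mean of the vehicle libraries, with 1 row per gene and 1 column per library, grouped by function. The Vem columns are red for most rows, the RSV+Vem columns are paler than the Vem columns, and MANBA, GUSB and SCARB2 are blue with Vem. The values are TMM-scaled, so they are relative to the other genes of each library.

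Levels can be set beside each other between genes only per length of transcript. In vehicle-treated cells, on the scale of CPM per kilobase of the canonical transcript, the highest were CD63, a tetraspanin of late endosomes and melanosomes, at 795, PSAP, the precursor of the saposins that assist lipid hydrolysis, at 600, CTSB, a cysteine cathepsin, at 350.1, and CTSZ, a cathepsin with carboxypeptidase activity, at 340.4. CTSK at 0.823, CTSS at 0.938 and IDUA, the iduronidase of glycosaminoglycan breakdown, at 2.41 were the lowest. CTSK and CTSS, both cysteine cathepsins, had between 10 and 39 counts and between 42 and 184 counts per library. ATP6V0C, the main proteolipid of the V0 ring, stood at 7.72, but 98.8% of its exonic bases also lie in exons of other genes on the same strand in GENCODE v44lift37, and read pairs that overlap several genes are left out by the default setting of featureCounts. The same share was 90.7% for IDS, 62.1% for CTSD and 35.7% for MAN2B1, so the levels of these 4 genes are uncertain and their differences rest on the part of the transcript that was counted.

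Vem was compared with vehicle to ask how these genes moved with this drug. Which action of Vem moved them was not tested. Most of them rose relative to the other genes of the library, 32 of 48 against 25.5% of all tested genes called higher, while 3 of 48 fell against 26.9% of all tested genes called lower (edgeR, adjusted p below 0.05 over 16080 genes). Their median log2 fold change was 0.56, and that of all tested genes was -0.03. When the libraries were scaled to the ERCC spike-ins instead, the median of all tested genes moved to -0.68 and that of the 48 genes to -0.10, 0.58 above all genes, and 13 of the 32 genes that rose under TMM had values below 0. With that scaling edgeR called 1 of the 48 genes higher. Directions given here are therefore relative to the other genes in the same library.

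**Figure D2:**
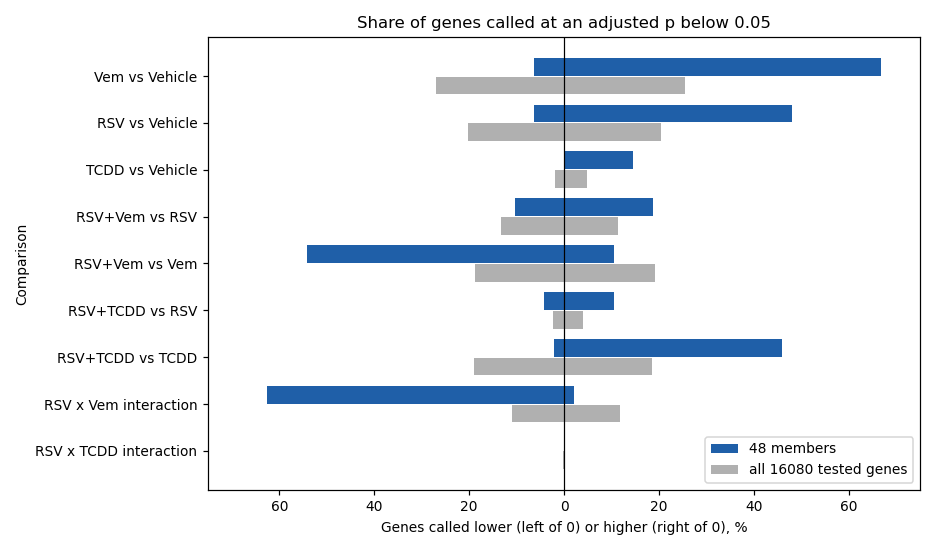
Share of the 48 genes (blue) and of all 16080 tested genes (grey) called lower, left of 0, or higher, right of 0, in each of the 9 comparisons, in percent of the genes. On the higher side the blue bar exceeds the grey bar in every comparison other than RSV+Vem vs Vem and the interactions, with 32 of 48 genes for Vem, and on the lower side it is longest in RSV+Vem vs Vem, with 26, and in the RSV x Vem interaction, with 30. Calls are relative to the other genes under TMM scaling; under spike-in scaling 1 gene was called higher with Vem.

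Of the 28 hydrolases, activators and carriers, 15 rose with Vem and 2 fell, against 25.5% and 26.9% of all tested genes. Under spike-in scaling 4 of the 15 had values below 0. GAA, the acid alpha-glucosidase that degrades lysosomal glycogen (GRCh37 chr17:78075332-78093680, plus strand), was at 30.7 and 29.2 CPM with vehicle and at 98.4 and 112 CPM with Vem. Its Vem libraries lay far above both vehicle libraries, with a log2 fold change of 1.81 ± 0.12 (adjusted p = 1.20e-09), the largest rise of the 48. CTSD, the main aspartic protease of the lysosome (chr11:1773982-1785803, minus strand), rose from 273 and 247 CPM to 737 and 773 CPM, a log2 fold change of 1.54 ± 0.10 (adjusted p = 4.31e-10). The groups did not overlap.

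Among the other proteases, TPP1, which removes tripeptides from protein ends, had a log2 fold change of 1.53 ± 0.08, CTSF, a cysteine cathepsin, one of 1.36 ± 0.10 and CTSA, a carboxypeptidase that also stabilises neuraminidase and beta-galactosidase, one of 1.27 ± 0.08. CTSA was at 273 and 279 CPM with vehicle and 662 and 671 CPM with Vem. CTSL and CTSZ rose as well, by 0.94 and 0.60 on the log2 scale. No call was made for CTSB (0.10), CTSH (-0.03), CTSK (0.55) or CTSS (-0.13), so 6 of 10 proteases rose, against 25.5% of all tested genes. Under spike-in scaling CTSZ was the riser that turned below 0, at -0.05.

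Of the 12 glycan enzymes, 5 were higher and 2 lower, against 25.5% and 26.9% of all tested genes. Besides GAA, the rises were MAN2B1, the lysosomal alpha-mannosidase, by 1.00, NAGLU, an exoglycosidase of heparan sulfate, by 0.91, HEXA, the alpha subunit of hexosaminidase A, by 0.69, and NEU1, the lysosomal sialidase, by 0.43 on the log2 scale; of these NEU1 was below 0, at -0.22, under spike-in scaling. MANBA, the lysosomal beta-mannosidase, went the other way, from 39.4 and 30.5 CPM with vehicle to 19.9 and 19.9 CPM with Vem, a log2 fold change of -0.81 ± 0.13 (adjusted p = 3.13e-05). GUSB, the beta-glucuronidase, was at 69.1 and 69.7 CPM with vehicle and 46.3 and 47.1 CPM with Vem, a log2 fold change of -0.57 ± 0.10 (adjusted p = 6.87e-05). Neither gene overlapped between the groups. GLA, GLB1, IDS, IDUA and SGSH were not called.

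Among the lipid enzymes and carriers, SMPD1, the acid sphingomyelinase, rose by 1.35 and GRN, progranulin, by 1.32 on the log2 scale, and PSAP and NPC2, a carrier of cholesterol, by 0.57 and 0.56. Under spike-in scaling PSAP and NPC2 were at -0.08 and -0.09. LIPA, the acid lipase, and ASAH1, the acid ceramidase, were not called, at -0.11 ± 0.13 and 0.07 ± 0.10.

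The membrane proteins did not move as one. MCOLN1, the lysosomal calcium channel mucolipin-1 (chr19:7587510-7598895, plus strand), was at 24.9 and 30 CPM with vehicle and 68.1 and 68.4 CPM with Vem, a log2 fold change of 1.31 ± 0.12 (adjusted p = 8.73e-08). CD63 rose by 0.67 and LAMP2, a structural glycoprotein that also serves as a receptor in chaperone-mediated autophagy, by 0.30 (adjusted p = 0.0196), a call that was lost without vehicle replicate 2 or either Vem library and was at -0.35 under spike-in scaling. LAMP2 was at 241 and 219.9 CPM with vehicle and 283 and 285 CPM with Vem. LAMP1, its abundant relative (chr13:113951554-113977987, plus strand), was at 262 and 260.4 CPM with vehicle and 288 and 296 CPM with Vem. Its groups did not overlap, but its log2 fold change of 0.16 ± 0.08 (adjusted p = 0.0894) did not pass the test. SCARB2, the carrier of glucocerebrosidase to the lysosome, fell from 393 and 349.9 CPM to 278 and 276 CPM, a log2 fold change of -0.42 ± 0.09 (adjusted p = 5.85e-04).

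Both TFE factors rose with Vem, and TFEB was at -0.05 and TFE3 at 0.05 under spike-in scaling. TFEB (chr6:41651716-41703997, minus strand) was at 28.2 and 33.3 CPM with vehicle and 46.9 and 46.7 CPM with Vem, a log2 fold change of 0.60 ± 0.12 (adjusted p = 3.27e-04). TFE3 (chrX:48886237-48900936, minus strand) was at 51.1 and 51.0 CPM and 85.5 and 80.1 CPM, a log2 fold change of 0.70 ± 0.10 (adjusted p = 1.59e-05). These are transcript levels, and the activity of both factors, which depends on their passage to the nucleus, was not measured.

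The genes of the proton pump moved largely together. Of its 13 components, 12 rose with Vem, against 25.5% of all tested genes, and ATP6V1C1 was not called. Under spike-in scaling 7 of the 12 had values below 0, among them all 6 risers of the V1 sector. The 5 V0 genes rose by between 0.55 and 0.98 on the log2 scale. ATP6V0D1, which encodes the d subunit that joins V0 to the central stalk, was at 97.6 and 107 CPM with vehicle and 193 and 210.3 CPM with Vem, a log2 fold change of 0.98 ± 0.10 (adjusted p = 1.41e-07). The largest subunit, encoded by ATP6V0A1, followed at 0.95 ± 0.09.

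The V1 genes moved less. ATP6V1D, of the central stalk, had a log2 fold change of 0.61 ± 0.10, and ATP6V1A and ATP6V1B2, which form the catalytic ring, of 0.35 ± 0.13 and 0.34 ± 0.09. ATP6V1H, the regulatory subunit H, was at 112 and 104 CPM with vehicle and 132 and 135 CPM with Vem, a log2 fold change of 0.31 ± 0.10 (adjusted p = 0.0145) that lost its call without vehicle replicate 2 or either Vem library. ATP6V1C1, the subunit C that links the stalks, was the exception, at 197 and 181 CPM with vehicle and 172 and 182 CPM with Vem, where the groups overlapped. ATP6AP1, an accessory subunit needed for assembly of the pump (chrX:153656979-153664862, plus strand), stood apart, at 196 and 190.0 CPM with vehicle and 581 and 566 CPM with Vem, a log2 fold change of 1.57 ± 0.09 (adjusted p = 1.37e-10).

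**Figure D3:**
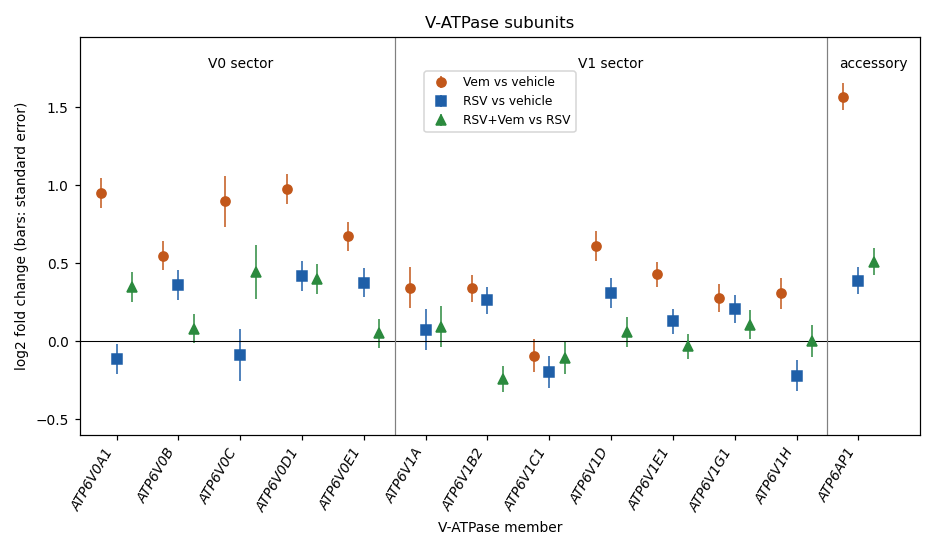
Log2 fold changes of the 13 V-ATPase components in Vem vs vehicle (circles), RSV vs vehicle (squares) and RSV+Vem vs RSV (triangles), with bars for the standard error of the fit, 2 libraries per group. With Vem, ATP6AP1 is highest at 1.57, the V0 genes lie between 0.55 and 0.98, and ATP6V1C1 is the only component below 0. Values are relative to the other genes under TMM scaling, and scaling to the spike-ins moved the median of all genes to -0.68 with Vem.

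Promoters were read because many of these genes moved together with Vem and share a known element. RefSeq promoters of GRCh38.p14, 250 bases before to 50 bases after the gene start, were at hand for 33 of the 48 genes and for 35116 promoters in all. Each of the 33 genes entered with a single promoter, while the 35116 were not limited to tested genes, so the sets are not alike. TCACGTG, the core of the CLEAR motif, searched on both strands, was in 10 of the 33 promoters (30.3%) and in 3.71% of all promoters. Its inner CACGTG, which overlaps it, was in 33.3% of the 33 and 7.26% of all. TCATGTG was in 15.2% and 2.92%, and TTGCGTG, a longer form of the AhR element, in 0 of the 33 and in 1.16% of all. Shorter or other forms of the AhR element were not searched. TCACGTG is known from genes of this organelle, and the 48 were listed as such genes. Its higher share among the 33 was therefore built in and is no result about Vem. The genes shown are the 4 with the largest change against vehicle among the named genes with a TCACGTG match, and capitals mark the matches and, where they follow each other on both strands, the whole palindrome.
GAA (chr17:80101464-80101590, plus strand): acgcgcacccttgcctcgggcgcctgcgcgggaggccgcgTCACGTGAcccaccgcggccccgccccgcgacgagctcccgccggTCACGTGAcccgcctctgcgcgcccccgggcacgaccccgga
CTSD (chr11:1763928-1764014, minus strand): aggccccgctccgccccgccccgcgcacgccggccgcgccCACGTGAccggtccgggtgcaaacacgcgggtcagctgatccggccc
CTSF (chr11:66568683-66568769, minus strand): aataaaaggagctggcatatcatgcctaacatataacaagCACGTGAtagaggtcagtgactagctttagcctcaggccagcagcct
MCOLN1 (chr19:7522542-7522633, plus strand): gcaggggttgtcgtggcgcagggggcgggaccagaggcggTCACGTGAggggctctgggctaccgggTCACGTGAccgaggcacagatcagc

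The GAA promoter held matches between bases -77 and -25 from the gene start and the MCOLN1 promoter between -42 and -8, while CTSD and CTSF held 1 match each, from -47 and from -123. Of the 10 genes with TCACGTG, 9 were higher with Vem, with a median log2 fold change of 1.13. Of the 23 genes without it, 15 were higher and 2 lower, with a median of 0.60. LAMP1 held 6 CACGTG sites and was the gene of the 10 that was not called with Vem, while ATP6AP1 and SMPD1, with large rises, held none in this window. With RSV the medians were 0.33 with the motif and 0.24 without it, and with TCDD -0.02 and 0.09. These are descriptions of letters in a fixed window, not of bound sites, and no test was made of the difference.

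RSV alone was compared with vehicle as the arm against which the combinations are read. It raised 23 of 48 genes, against 20.5% of all tested genes called higher, and lowered 3, against 20.2% called lower. The median log2 fold change of the 48 was 0.25, and under spike-in scaling, where 0 of the 23 turned below 0, all tested genes had a median of -0.17 and the 48 genes one of 0.08. With that scaling, however, edgeR called 0 of the 48 genes in either direction. The count of genes called higher was between 18 and 22 when 1 library was left out, while the count called lower dropped to 1 without vehicle replicate 1, vehicle replicate 2 or RSV replicate 1.

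By class, 6 of 10 proteases, 5 of 12 glycan enzymes and 4 of 6 lipid enzymes and carriers rose with RSV. Of all tested genes 20.5% were called higher. The leading gene was NEU1 (chr6:31825436-31830682, minus strand), at 84.3 and 91.1 CPM with vehicle and 219 and 201 CPM with RSV. The libraries did not overlap, and the log2 fold change was 1.26 ± 0.10 (adjusted p = 3.31e-08). GLA, the alpha-galactosidase that trims glycolipids, was at 42.0 and 38.4 CPM with vehicle, 37.3 and 39.1 CPM with Vem and 78.9 and 81.5 CPM with RSV, so that it was high in the RSV libraries and overlapped with vehicle in the Vem libraries (RSV vs vehicle 1.00 ± 0.10, adjusted p = 7.11e-07). GUSB was high with RSV, at 99.8 and 97.2 CPM (0.51 ± 0.09, adjusted p = 3.52e-04), and was low with Vem.

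CTSS was at 4.15 and 3.24 CPM with vehicle and 8.08 and 8.83 CPM with RSV, a log2 fold change of 1.20 ± 0.19 (adjusted p = 9.53e-05). This cathepsin is best known from antigen-presenting cells. The macrophage and leukocyte markers summed to between 0.32 and 0.51 CPM with vehicle and to between 1.69 and 2.00 CPM with RSV, with PTPRC at 0 to 3 counts and AIF1 at 0 counts in these libraries. Both members of that list with enough counts to test were higher with RSV, CSF1R from 1 and 2 counts to 14 and 8 counts (3.08 ± 0.80, adjusted p = 0.00527) and ITGAM from 5 and 5 counts to 13 and 26 counts (2.24 ± 0.54, adjusted p = 0.00322). Their part in the level of CTSS was not tested. GRN (0.94), GAA (0.91), TFE3 (0.78), CTSD (0.76), IDUA (0.76) and SMPD1 (0.69) also rose with RSV.

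Of the 13 pump components, 6 were higher with RSV, beside the 23 of all 48 genes and 20.5% of all tested genes. ATP6V0D1 was at 143 and 131 CPM, above both vehicle libraries, with a log2 fold change of 0.42 ± 0.10, and ATP6AP1 had one of 0.39 ± 0.09. ATP6V1H was at 84.5 and 100.5 CPM, below both vehicle libraries, but its log2 fold change of -0.22 ± 0.10 (adjusted p = 0.0881) was not called. It was called without RSV replicate 2, at -0.35. ATP6V0A1, at -0.11 ± 0.09 (adjusted p = 0.364), was not called.

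TFEB and TFE3 moved apart with RSV. TFEB was at 24.4 and 22.4 CPM, below both vehicle libraries, a log2 fold change of -0.40 ± 0.12 (adjusted p = 0.0135), while TFE3 was at 91.8 and 83.2 CPM, above both, at 0.78 ± 0.10 (adjusted p = 1.37e-05). The fall of TFEB lost its call without vehicle replicate 2 or RSV replicate 2. ASAH1, at -0.26 ± 0.10 (adjusted p = 0.0399), and CD63, at -0.23 ± 0.08 (adjusted p = 0.0316), were the other genes called lower, and each lost its call when 1 of several libraries was left out. LAMP1, at 268 and 259 CPM with RSV, did not differ beyond its error (0.01 ± 0.08). LAMP2 was at 263 and 314 CPM, higher by 0.32 ± 0.10 (adjusted p = 0.0174), a call lost without vehicle replicate 2 or RSV replicate 2. MCOLN1 was at 36.3 and 31.4 CPM, above both vehicle libraries, and was not called at 0.30 ± 0.13 (adjusted p = 0.0659), but was called without vehicle replicate 2 or RSV replicate 2.

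**Figure D4:**
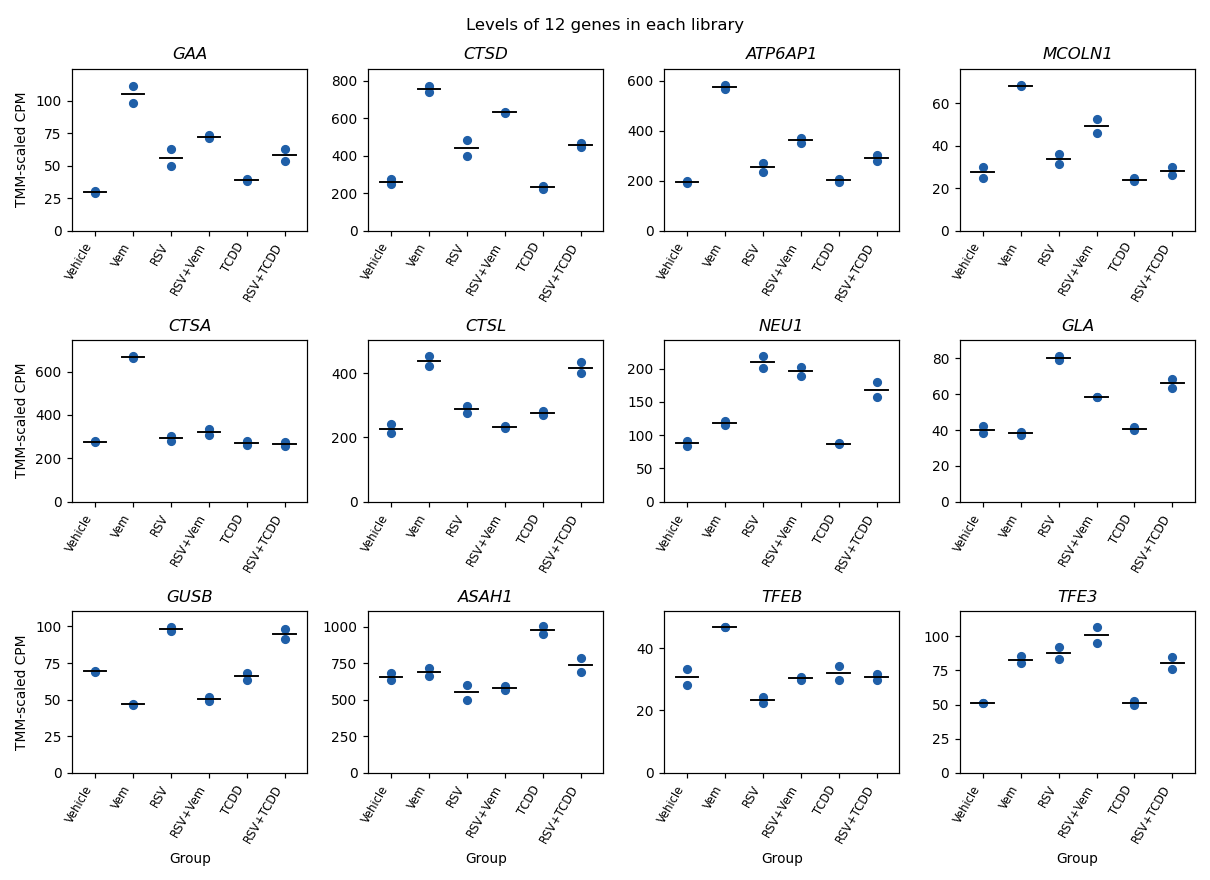
TMM-scaled CPM of 12 of the 48 genes in each library, with a point per library and a line at the mean of the 2 libraries of a group, on axes that start at 0. GAA, CTSD, ATP6AP1, MCOLN1, CTSA, CTSL and TFEB are highest with Vem, NEU1, GLA and GUSB with RSV, ASAH1 with TCDD and TFE3 with RSV+Vem. Levels are relative to the other genes of a library.

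The combination was read in both directions. Adding Vem to RSV raised 9 of 48 genes, against 11.3% of all tested genes called higher, and lowered 5, against 13.4% called lower. The median log2 fold change was 0.06 for the 48 genes and 0.00 for all genes, and scaling to the spike-ins moved these to -0.47 and -0.52 and turned 7 of the 9 rises below 0. Without RSV+Vem replicate 1 or RSV+Vem replicate 2 the count called higher was 5, and without RSV+Vem replicate 2 the count called lower was 3.

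The 9 genes were CTSD, CTSF, TPP1, GAA, MCOLN1, TFEB, ATP6V0A1, ATP6V0D1 and ATP6AP1. All 9 belonged to the 32 genes higher in Vem vs vehicle. That comparison shares no library with this one, but both came from the same fit of all 12 libraries. The matching overlap among all tested genes was not counted, so the 9 of 32 has no background share beside it. CTSF was at 93.5 and 82.0 CPM with RSV and 143 and 131 CPM with RSV+Vem, a log2 fold change of 0.64 ± 0.10 (adjusted p = 9.90e-05). MCOLN1 was at 36.3 and 31.4 CPM and 52.7 and 46.1 CPM (0.55 ± 0.13, adjusted p = 0.00365), and lost its call without RSV+Vem replicate 1. CTSD was at 484 and 398 CPM and 635 and 627 CPM (0.52 ± 0.09, adjusted p = 6.79e-04), and was at -0.02 under spike-in scaling.

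TFEB was at 30.8 and 29.8 CPM with RSV+Vem, above both RSV libraries (0.38 ± 0.12, adjusted p = 0.0334), a call lost without RSV replicate 2, RSV+Vem replicate 1 or RSV+Vem replicate 2, and ATP6V0D1 was at 179 and 182 CPM (0.40 ± 0.10, adjusted p = 0.00558), a call lost without RSV replicate 2. LAMP1, at 264 and 254 CPM, LAMP2, at 286 and 315 CPM, and ATP6V1H, at 86.8 and 99.1 CPM, overlapped with their RSV libraries. The largest fall that passed the test was that of GUSB, from 99.8 and 97.2 CPM with RSV to 51.8 and 49.0 CPM with RSV+Vem, a log2 fold change of -0.96 ± 0.10 (adjusted p = 1.36e-06), so this gene was low in all 4 libraries that received Vem. CTSB, which Vem alone had left near its vehicle level, fell from 1394 and 1296 CPM to 900.5 and 880.3 CPM (-0.60 ± 0.08, adjusted p = 2.31e-05), and the RSV+Vem libraries held its lowest values of the 12. GLA (-0.46), CTSL (-0.31) and ATP6V1B2 (-0.24) were also lower.

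Seen from the other side, RSV+Vem had lower levels than Vem alone for 26 of 48 genes, against 18.7% of all tested genes called lower, and higher levels for 5, against 19.1% called higher. The median log2 fold change was -0.28, and -0.30 under spike-in scaling, where all tested genes had a median of -0.02 and 0 of the 48 genes were called in either direction. With 1 library left out, the genes called lower numbered between 19 and 21, and those called higher numbered 2 without Vem replicate 1 and 3 without Vem replicate 2 or RSV+Vem replicate 1.

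Apart from CTSK, with 10 to 29 counts in these libraries, CTSA showed the largest difference, at 662 and 671 CPM with Vem and 333 and 308 CPM with RSV+Vem, a log2 fold change of -1.06 ± 0.08 (adjusted p = 4.47e-08). Its RSV+Vem libraries lay nearer to the RSV libraries, at 302 and 282 CPM, than to the Vem libraries. CTSL was at 422 and 455 CPM with Vem and 235 and 229 CPM with RSV+Vem (-0.92 ± 0.09, adjusted p = 3.82e-07), and CD63 at 1258 and 1326 CPM and 735 and 643 CPM (-0.91 ± 0.08, adjusted p = 1.84e-07). Both were back in the range of the vehicle libraries or below it. TFEB and ATP6V1H were lower as well, with log2 fold changes of -0.62 and -0.53.

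The 5 genes higher with RSV+Vem than with Vem were CTSS (0.84), NEU1 (0.73), GLA (0.61), MANBA (0.38) and TFE3 (0.29). NEU1 was at 203 and 189.6 CPM with RSV+Vem, close to its RSV libraries. TFE3 had its highest levels of the 12 libraries there, at 107 and 95.0 CPM, and its difference from Vem lost its call without Vem replicate 1, Vem replicate 2 or RSV+Vem replicate 1.

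**Figure D5:**
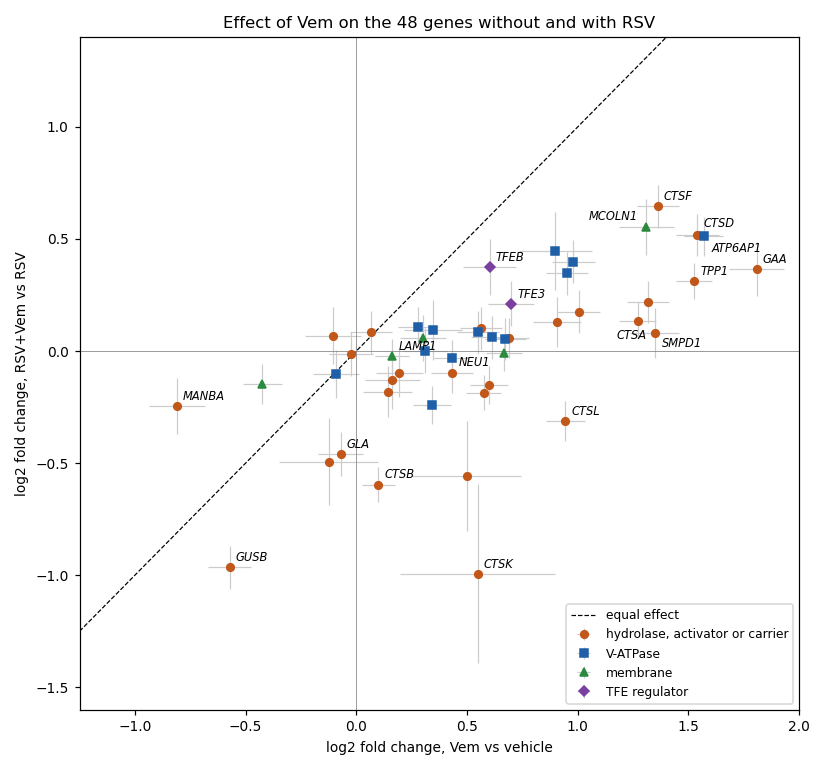
Log2 fold change of each of the 48 genes in Vem vs vehicle (horizontal axis) and in RSV+Vem vs RSV (vertical axis), with bars for standard errors and a dashed line where both would be equal; marker shapes give the class. Most points lie below the line, with GAA at 1.81 and 0.37 and ATP6AP1 at 1.57 and 0.51. Both axes are relative to all genes with TMM factors; with spike-in scaling the medians of the 48 genes were -0.10 and -0.47.

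The difference between the effects of Vem with and without RSV was tested as an interaction. It was negative, meaning that the log2 fold change with Vem was lower in the presence of RSV, for 30 of 48 genes, against 10.9% of all tested genes called lower, and positive for 1, against 11.8% called higher. The median interaction was -0.54 on the log2 scale for the 48 genes and 0.02 for all tested genes; under spike-in scaling it was -0.41 for the 48 and 0.15 for all, and edgeR then called 0 of them in either direction. With 1 library left out, between 24 and 28 genes were called negative. CTSL and ATP6V1B2 were called in opposite directions, at 0.94 and 0.34 in Vem vs vehicle and at -0.31 and -0.24 in RSV+Vem vs RSV, while CTSB was not called in the first and fell in the second.

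By class, the interaction was negative for 8 of 10 proteases, 7 of 12 glycan enzymes and 4 of 6 lipid enzymes and carriers. It was also negative for 2 of 5 membrane proteins, 1 of 2 TFE factors and 8 of 13 V-ATPase components. Of all tested genes 10.9% were called negative. CTSK had the most negative value, -1.54 ± 0.53 (adjusted p = 0.0447), on 10 to 39 counts per library. Among well counted genes the largest were those of GAA, at -1.44 ± 0.17 (adjusted p = 1.31e-05), SMPD1, at -1.27 ± 0.16 (adjusted p = 1.88e-05), and CTSL, at -1.26 ± 0.13 (adjusted p = 2.69e-06). SMPD1 was at 40.1 and 39.8 CPM with vehicle, a mean of 102 CPM (SD 2.32) with Vem, 71.0 and 57.9 CPM with RSV and 66.1 and 70.3 CPM with RSV+Vem, so that either agent alone was above vehicle and the combination lay with RSV. CTSD (-1.02), MCOLN1 (-0.76), ATP6V0D1 (-0.58), ATP6AP1 (-1.06) and TFE3 (-0.49) were called too, TFE3 not without Vem replicate 1, RSV replicate 1 or RSV+Vem replicate 2.

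The interaction was not called for TFEB (-0.23 ± 0.17, adjusted p = 0.371), LAMP1 (-0.18 ± 0.11, adjusted p = 0.244), LAMP2 (-0.24 ± 0.15, adjusted p = 0.247) or ATP6V1H (-0.31 ± 0.14, adjusted p = 0.131). MANBA was the gene with a positive value, 0.57 ± 0.18 (adjusted p = 0.0291), its fall with Vem being smaller with RSV, and that call was lost without any 1 of 6 of the 8 libraries. It was at 31.3 and 30.1 CPM with RSV and 26.1 and 25.8 CPM with RSV+Vem.

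Other measures moved with the same groups. The summed level of 6 ERK target genes was between 758 and 807 CPM with vehicle, between 47.9 and 60.2 CPM with Vem, between 768 and 809 CPM with RSV and between 147 and 153 CPM with RSV+Vem. All 6 had a positive interaction, with a median of 1.86, and DUSP6 was at 14.5 and 11.9 CPM with RSV+Vem. The melanocyte markers summed to between 19378 and 20476 CPM with vehicle, between 48206 and 51552 CPM with Vem, between 11108 and 12304 CPM with RSV and between 19659 and 21037 CPM with RSV+Vem. RIN values were 9.2 and 9.7 with Vem, 9.2 and 9.5 with RSV, and 8.7 and 8.6 with RSV+Vem. The part of these measures in the lysosomal interaction was not tested.

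TCDD, the AhR agonist, moved few of the genes. It raised 7 of 48, against 4.72% of all tested genes called higher, and lowered none, against 2.01% called lower; at an unadjusted p below 0.05 edgeR gave 14 higher and 2 lower, and DESeq2 called 7 and 0. The median log2 fold change was 0.07, and under spike-in scaling it was -0.43 against -0.51 for all tested genes, with 5 of the 7 rises turned below 0. The count was 4 without vehicle replicate 1 or TCDD replicate 1, and 3 without TCDD replicate 2.

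NPC2 was at 70.6 and 70.8 CPM with vehicle and 103 and 107 CPM with TCDD, a log2 fold change of 0.57 ± 0.09 (adjusted p = 0.00100). ASAH1 was at 680.1 and 637 CPM and 1001 and 949.8 CPM (0.57 ± 0.10, adjusted p = 0.00148), the highest values of this gene in the 12 libraries, and CTSB at 1326 and 1288 CPM and 1756 and 1780.3 CPM (0.44 ± 0.08, adjusted p = 0.00174), a difference that was at -0.07 under spike-in scaling. In each of these genes the TCDD libraries lay above both vehicle libraries. TPP1 (0.41), MAN2B1 (0.40), GLB1, the beta-galactosidase (0.36), and CD63 (0.36) made up the rest. No V-ATPase component was called with TCDD by edgeR, and neither were TFEB (0.05 ± 0.12), TFE3 (0.00 ± 0.10) and MCOLN1 (-0.20 ± 0.13). LAMP1 was at 224 and 227 CPM, below both vehicle libraries, and its log2 fold change of -0.21 ± 0.08 (adjusted p = 0.116) did not pass the test.

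With RSV present, TCDD, at a dose that is not certain, raised 5 of 48 genes, against 3.89% of all tested genes called higher. It lowered 2, against 2.28% called lower. The median log2 fold change was 0.06. Under spike-in scaling the median of all tested genes was -1.02 and that of the 48 genes -0.96, all 5 rises turned below 0, and 21 of the 48 genes were called lower; the control sequences took 0.0630% and 0.0936% of the counts in the RSV+TCDD libraries, against 0.0349% and 0.0413% in the RSV libraries.

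CTSL was at 299.5 and 278 CPM with RSV and 435 and 401 CPM with RSV+TCDD (0.53 ± 0.09, adjusted p = 0.00185), and CD63 at 695 and 691 CPM and 979 and 1004 CPM (0.52 ± 0.08, adjusted p = 0.00132). CTSF (0.44), ASAH1 (0.42) and NPC2 (0.40) were the other rises, and the count of rises was 3 without RSV replicate 2, RSV+TCDD replicate 1 or RSV+TCDD replicate 2. LAMP1 fell from 268 and 259 CPM to 213 and 215 CPM (-0.30 ± 0.08, adjusted p = 0.0288), and this call was lost when any 1 of the 4 libraries compared was left out. The count of falls was 1 without RSV replicate 1 and 0 without any other of the 4. CTSK, at -1.35 ± 0.38 (adjusted p = 0.0436), was the other fall and rested on 11 to 39 counts per library.

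RSV in the presence of TCDD raised 22 of 48 genes, against 18.6% of all tested genes called higher, and lowered 1, against 19.1% called lower. The median was 0.24, and under spike-in scaling it was -0.43 against -0.70 for all tested genes, with 17 of the 22 rises below 0. CTSS was at 3.16 and 3.09 CPM with TCDD and 6.64 and 8.67 CPM with RSV+TCDD (1.29 ± 0.20, adjusted p = 8.83e-05), GRN at 327 and 370.2 CPM and 787 and 704 CPM (1.10 ± 0.09, adjusted p = 1.75e-07), and CTSD at 221 and 239 CPM and 467 and 445 CPM (0.99 ± 0.10, adjusted p = 6.00e-07). In all 3 the RSV+TCDD libraries lay above the TCDD libraries. ASAH1 was the gene that fell, from 1001 and 949.8 CPM to 686 and 788 CPM (-0.40 ± 0.10, adjusted p = 0.00322), a call that was lost without RSV+TCDD replicate 1.

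The RSV x TCDD interaction was called for 0 of 48 genes, against 0.0124% of all tested genes called higher and 0.137% called lower. It too may hold a difference in the dose of TCDD. At an unadjusted p below 0.05 edgeR gave 3 genes, all 3 negative, the lowest adjusted p among the 48 was 0.589, and DESeq2 called 0. The median was -0.03, and -0.54 under spike-in scaling, where all tested genes had a median of -0.52. CYP1A1 had an interaction of -3.32 in the same fit. Its log2 fold change was 2.62 ± 0.12 with TCDD alone and 1.55 ± 0.12 with RSV alone, so the interaction also holds the rise with RSV. The standard error of the interaction was 0.13 for CTSD and 0.17 for TFEB on the log2 scale.

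Other genes of the pathway were taken from lists by function, and their counts too are relative to the other genes under TMM scaling. They stand beside the shares of all tested genes called higher and lower, which were 25.5% and 26.9% with Vem, 20.5% and 20.2% with RSV, and 11.8% positive and 10.9% negative for the RSV x Vem interaction. Of 23 tested enzymes and activators outside the 48 (of 24 listed), 14 rose with Vem and 4 fell, 15 rose with RSV and 1 fell, and the interaction was negative for 14. CTSO, a cysteine cathepsin with few counts, was at 1.06 and 0.283 CPM with vehicle, 4.73 and 4.00 CPM with Vem and 2.11 and 2.05 CPM with RSV. Its changes were the largest of that list in both comparisons, at 2.76 ± 0.40 and 1.69 ± 0.43 on the log2 scale, and the second lost its call without vehicle replicate 2. The other V-ATPase subunits, mostly tissue-restricted isoforms, gave 3 rises and 2 falls with Vem among 11 tested, and 3 rises with RSV, so their rises were near the 25.5% and 20.5% of all genes.

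ATP6V0D2, the d subunit isoform known from osteoclasts and kidney, went from 0.506 and 0.243 CPM with vehicle to 3.26 and 3.36 CPM with RSV (3.17 ± 0.39, adjusted p = 7.17e-06) and was at 0.278 and 0.0768 CPM with Vem. ATP6V1G2, a neuronal G subunit, was at 2.02 and 1.70 CPM with vehicle and 3.20 and 3.15 CPM with Vem (0.78 ± 0.26, adjusted p = 0.0165). Both are low, and the call of ATP6V1G2 was lost with DESeq2 and without vehicle replicate 2 or either Vem library.

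Of 15 tested membrane proteins outside the 48, 6 rose and 3 fell with Vem, against 25.5% and 26.9% of all genes, and 4 rose and 1 fell with RSV, where the rises were near the 20.5% of all genes. CLCN7, the lysosomal chloride-proton exchanger, was at 399 and 387 CPM with vehicle and 1032 and 999 CPM with Vem (1.37 ± 0.09, adjusted p = 1.44e-09), and the groups did not overlap. CD68, a glycoprotein of macrophage lysosomes, had 1 count in each vehicle library and 10 and 22 counts in the RSV libraries.

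Of the 12 genes of the mannose 6-phosphate pathway and sorting, 7 rose and 3 fell with Vem, the falls being near the 26.9% of all genes, and 1 rose and 4 fell with RSV, against 20.5% and 20.2% of all genes. GNPTG, the gamma subunit of the enzyme that makes the mannose 6-phosphate tag, was at 29.7 and 32.1 CPM with vehicle and 58.1 and 56.9 CPM with Vem (0.90 ± 0.10, adjusted p = 7.86e-07). AP3B1, a subunit of the adaptor that carries cargo to melanosomes and lysosomes, fell from 103 and 106 CPM to 59.6 and 59.0 CPM with RSV (-0.82 ± 0.10, adjusted p = 6.92e-06). In both genes the groups were well separated.

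Among 17 tested genes of the MiT/TFE family and its control by mTORC1 and the Rag GTPases, 11 rose with Vem, against 25.5% of all genes, and 4 rose and 5 fell with RSV, against 20.5% and 20.2%. The lowest value with Vem was that of FNIP1, a partner of folliculin, at -0.28 ± 0.13 (adjusted p = 0.0752). MITF was at 1197 and 939 CPM with vehicle, 1216 and 1259.8 CPM with Vem and 457 and 633 CPM with RSV. It was not called with Vem (0.21 ± 0.15, adjusted p = 0.264) and was lower with RSV (-0.97 ± 0.15, adjusted p = 3.55e-04). RRAGD, a Rag GTPase, had a log2 fold change of 0.51 ± 0.13 (adjusted p = 0.00508) with Vem, lost without vehicle replicate 2 and at -0.14 under spike-in scaling, and RRAGB, another, one of 0.93 ± 0.13 (adjusted p = 9.88e-06). FLCN, folliculin, which acts on RagC and RagD, was at 0.22 ± 0.12 (adjusted p = 0.126) with Vem and 0.41 ± 0.12 (adjusted p = 0.00815) with RSV. TFEC had at most 2 counts in any library.

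Of 19 tested autophagy genes, 15 rose and 1 fell with Vem, against 25.5% and 26.9% of all genes, and 7 rose and 5 fell with RSV, against 20.5% and 20.2%. The interaction was negative for 9 and positive for 1. SQSTM1, the cargo receptor p62, was at 214 and 282 CPM with vehicle, 486 and 483 CPM with Vem, 722 and 619 CPM with RSV and 694 and 656 CPM with RSV+Vem. All treated libraries of these groups lay above both vehicle libraries, with log2 fold changes of 0.97 ± 0.11 (adjusted p = 8.21e-07) for Vem and 1.44 ± 0.11 (adjusted p = 4.38e-08) for RSV and an interaction of -0.96 ± 0.15 (adjusted p = 2.72e-04). OPTN, optineurin, another receptor, was at 1.16 ± 0.12 (adjusted p = 1.51e-07) with Vem.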

How the data were processed

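Poly(A) RNA of 501Mel cells was sequenced with a stranded kit. The authors aligned reads to hg19 with STAR 2.4.0a and counted read pairs per gene name with featureCounts of Subread 1.5.0-p3; the annotation release is not given in the sources used here. The deposited values are raw counts, not normalized. The authors' counting option names the forward strand; MT-ND6, on the opposite strand to its neighbours, had 889 to 5598 counts against 201169 to 486826 for MT-CO1, so sense transcripts were counted. The table had 96 rows of control sequences, 92 of them ERCC spike-ins, which were left out of library sizes.

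All 12 libraries were fitted together with edgeR 4.0.16 (filterByExpr, TMM factors, robust quasi-likelihood F tests, 1 coefficient per group) in R 4.3.3, with Benjamini-Hochberg adjustment over 16080 genes and a threshold of 0.05. Log2 fold changes, their standard errors and interactions come from contrasts of the 6 groups. Vehicle libraries are shared by the 3 comparisons with vehicle and by the interactions. Replicates differed by more than sampling noise (chi-square per degree of freedom 4.61 to 22.6), so no library was taken as repeat sequencing of another. Libraries made from the same culture could differ in this way too, so the value cannot show that cultures were separate. The code was tested on simulated data. Medians of a list stand beside those of all genes. Lengths are of canonical transcripts in GENCODE v44lift37, and the release counted may differ.

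Named genes were LAMP1, LAMP2, MCOLN1, CTSD, TFEB, TFE3, ATP6V0D1 and ATP6V1H, and in each comparison the 3 largest rises and 3 largest falls among called members without overlap and with a mean of at least 50 counts in the higher group. MITF, FLCN, RRAGD, SQSTM1, DUSP6, CYP1A1 and, for Vem and RSV, the most changed called gene of each other list were named too; further genes were named after their values were seen. The members and lists were chosen with earlier results of these data known. Alternatives were DESeq2 1.42.0, its size factors in edgeR, spike-in scaling, other filters, only the libraries compared, a replicate block and each library left out. The labels give no shared origin for a replicate number, and over 15 pairs of groups the correlation of replicate deviations ran from -0.195 to 0.241 and exceeded 0.1 in 6, so the numbers were not taken to pair the samples.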

Additional observations from a re-analysis of the deposited data

Results flagged for a closer look

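The effect of Vem with RSV differed from that without RSV, tested as an interaction in edgeR, for 30 of the 48 genes in the negative direction and 1 in the positive direction. Of all tested genes, 10.9% were called negative and 11.8% positive. Under spike-in scaling 0 of the 48 were called in either direction. The interaction was -1.44 for GAA, -1.27 for SMPD1, -1.26 for CTSL, -1.02 for CTSD, -0.76 for MCOLN1, -0.58 for ATP6V0D1 and -0.49 for TFE3 on the log2 scale, and 0.57 for MANBA. Outside the 48 genes it was -0.96 for SQSTM1 and 2.66 for DUSP6. For RSV and TCDD, the interaction was -3.32 for CYP1A1, which RSV alone raised by 1.55 on the log2 scale. The dose of TCDD given with RSV is not certain. Each group had 2 libraries, so single libraries were not examined for distance from their group.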

How the results depend on the processing

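DESeq2, its size factors in edgeR and the replicate block changed no count of called members by more than 1.5 times; with the block Vem gave 32 higher and 3 lower and RSV+Vem vs RSV 9 and 6. The replicate numbers did not pair the samples over all groups, but those of the 3 groups that received RSV deviated together (r = 0.241 for RSV with RSV+Vem, 0.231 for RSV with RSV+TCDD and 0.180 for RSV+Vem with RSV+TCDD); with the block RSV+TCDD vs RSV gave 5 higher and 3 lower. Scaling to the ERCC spike-ins left 1 member called higher with Vem, 0 with RSV in either direction, 0 higher with TCDD, 0 higher and 1 lower in RSV+Vem vs RSV, 0 and 0 in RSV+Vem vs Vem, 0 and 21 in RSV+TCDD vs RSV, and 0 and 0 in RSV+TCDD vs TCDD and in the RSV x Vem interaction. The members' medians were then -0.10, 0.082, -0.43, -0.47 (RSV+Vem vs RSV), -0.96, -0.43, -0.41 (RSV x Vem) and -0.54 (RSV x TCDD). Values that changed sign were LAMP2 -0.35, TFEB -0.049, ATP6V1H -0.34 and RRAGD -0.14 with Vem, CTSB -0.073 with TCDD, CTSD -0.016, TFEB -0.15 and ATP6V0D1 -0.13 in RSV+Vem vs RSV, CTSL -0.48, CD63 -0.51, CTSF -0.58 and CTSD -0.98 in RSV+TCDD vs RSV, and LAMP2 -0.38, TFE3 -0.011 and ATP6V0D1 -0.13 in RSV+TCDD vs TCDD. The cause was not tested. With at least 10 counts in every library, RSV gave 1 lower and a median of 0.28, and RSV+TCDD vs TCDD a median of 0.28. With only the libraries compared, RSV gave 0 lower, RSV+TCDD vs RSV 3 higher and 0 lower, and the RSV x Vem interaction 0 positive; with no filter RSV+TCDD vs RSV gave 1 lower and the RSV x TCDD median was 0.0039.

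With 1 library left out, members called ranged from 28 to 32 higher with Vem, 18 to 22 higher and 1 to 2 lower with RSV, 3 to 6 higher with TCDD, 5 to 10 higher and 3 to 5 lower in RSV+Vem vs RSV, 2 to 4 higher and 19 to 21 lower in RSV+Vem vs Vem, 3 to 6 higher and 0 to 1 lower in RSV+TCDD vs RSV, 16 to 19 higher and 0 to 2 lower in RSV+TCDD vs TCDD, and 0 to 1 positive and 24 to 28 negative for RSV x Vem. Medians ranged from 0.20 to 0.24 with RSV, 0.028 to 0.11 with TCDD, -0.0028 to 0.054 in RSV+Vem vs RSV, 0.068 to 0.11 in RSV+TCDD vs RSV, -0.30 to -0.25 in RSV+Vem vs Vem, -0.58 to -0.49 for RSV x Vem and -0.078 to 0.0029 for RSV x TCDD. With 1 library left, the spread was taken from the other groups. CTSK and CTSS had few counts, and the spike-in share varied within groups, which limits what these settings can show.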
